A study of Mus musculus with 27 samples.

Results

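The EGF receptor family and its ligands were followed as 9 genes, chosen by symbol: the receptors Egfr, Erbb2 and Erbb3, and the ligands Areg, Ereg, Hbegf, Tgfa, Epgn and Btc. All 9 were found among the 51906 gene symbols of the RNA-seq table and in the 4 single cell matrices. The study grew mouse hair follicle stem cells (HFSCs), the cells that renew the hair follicle, as 3D colonies and asked how all-trans retinoic acid (atRA) affects their identity. For RNA-seq, 8 libraries were compared in 4 groups of 2: wild-type HFSCs in medium with fetal bovine serum (FBS), wild-type HFSCs in atRA+PKCi, and Rxra cKO HFSCs in each of these media. The atRA+PKCi medium was serum-free, with the B-27 supplement, atRA and Go6976, which blocks the calcium-dependent forms of protein kinase C (PKCi), so that removal of serum and the addition of both compounds cannot be told apart. In the mice behind the Rxra cKO lines, the Sox9-CreER transgene, a tamoxifen-inducible Cre driven by Sox9, acted on Rxra-fl/fl, the loxP-flanked gene of a partner of the retinoic acid receptors, and the R26-YFP reporter was also present. Lines were made from telogen back skin at postnatal day 55, from 2 mice of each genotype, so genotype and mouse of origin cannot be told apart, and p-values measure the spread between the 2 cultures of a group. Every line had first been grown on feeder cells that no longer divide, and colonies in either medium were started in serum-containing medium with EGF or FGF10, a point that matters here because EGF is itself a ligand of Egfr. Single cells came from 2 mice at postnatal day 32, in late anagen, both as sorted back skin cells and as HFSC cultures of the same mice.

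In this family, a ligand is made as a membrane-bound precursor, cut free by proteases of the ADAM group, and bound by Egfr, which then pairs with itself or with another member and activates the RAS-ERK cascade. Erbb2 has no known ligand and serves as the favoured partner, whereas Erbb3 binds neuregulins and has little kinase activity of its own. In skin, these ligands are known as autocrine growth and wound signals of keratinocytes, and mice that lack Egfr or Tgfa have wavy or disordered hair.

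Of the 6 ligands, 4 lay next to each other on mouse chromosome 5 in GENCODE on GRCm38, where Epgn, Ereg, Areg and Btc, in this order, took up 375.5 kb (positions 91027464 to 91402994) with no other protein-coding gene between them. Tgfa lay on chromosome 6 (86195223 to 86275719), Egfr and Erbb2 on chromosome 11 (16752203 to 16918158 and 98412470 to 98437716) and Erbb3 on chromosome 10 (128567523 to 128589652). RefSeq promoters on GRCm38.p6 were matched by symbol for 6 of the 9 members. Those of 3 neighbours on chromosome 5 are shown, since Areg and Epgn had the largest falls with the medium in wild-type HFSCs and Btc the largest difference between genotypes in FBS, all described below. Each sequence runs 5′ to 3′ along the gene's strand, up to the base before the RefSeq start or, where GENCODE starts the gene further upstream, before the GENCODE start, and capitals mark the motifs found, a CRE (TGACGTCA) and a TATA box (TATAAA).
Areg, chr5:91139349-91139598, plus strand: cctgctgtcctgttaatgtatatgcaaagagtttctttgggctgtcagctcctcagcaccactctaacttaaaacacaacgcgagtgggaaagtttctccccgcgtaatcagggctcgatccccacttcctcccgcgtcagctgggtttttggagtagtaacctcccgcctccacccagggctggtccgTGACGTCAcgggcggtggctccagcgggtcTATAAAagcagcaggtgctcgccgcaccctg
Epgn, chr5:91027267-91027463, plus strand: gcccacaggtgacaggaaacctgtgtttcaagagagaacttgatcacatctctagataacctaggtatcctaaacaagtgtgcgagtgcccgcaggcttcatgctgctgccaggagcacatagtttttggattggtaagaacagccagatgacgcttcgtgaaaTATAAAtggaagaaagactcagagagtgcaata
Btc, chr5:91402995-91403244, minus strand: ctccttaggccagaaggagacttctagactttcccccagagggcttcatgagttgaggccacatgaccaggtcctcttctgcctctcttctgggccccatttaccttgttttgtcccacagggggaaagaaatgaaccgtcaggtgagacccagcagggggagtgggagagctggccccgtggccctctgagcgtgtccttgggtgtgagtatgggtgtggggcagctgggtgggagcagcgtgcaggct

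In Areg, the gene of amphiregulin, the CRE lay at -61 to -54 and the TATA box at -31 to -26 from the RefSeq start. Epgn, the gene of epigen, held a TATA box at -33 to -28 from the GENCODE start, which lies 53 bases upstream of the RefSeq start, so that 197 bases are shown. Btc, the gene of betacellulin, held no match. Both strands were searched over the 250 bases before the RefSeq start, also where fewer are shown. Of 32851 promoters in the table, 1.55% held the CRE, 12.4% the TATA box, 6.75% an AP-1 motif (TGANTCA) and 0.00913% the retinoic acid receptor motif DR5 (2 direct AGGTCA repeats with 5 bases between them). Neither of these last motifs was found in the 6 member promoters, which says only that the letters are not in these windows.

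Library totals lay between 25150200 and 35879600 estimated counts, and 15965 genes passed the filter on low counts, with all 9 members among them. Levels are given as CPM, estimated counts scaled to library size with TMM factors, and between genes only as CPM per kb of exonic length. Rxra itself was checked first. It stood at 149 and 122 CPM in wild-type FBS, 147 and 143 CPM in wild-type atRA+PKCi, 97.2 and 95.7 CPM in the FBS libraries labelled cKO, and 148 and 145 CPM in the atRA+PKCi libraries labelled cKO. It was thus lower in cKO in FBS (log2 fold change -0.49, adjusted p = 0.00264) and not in atRA+PKCi (0.01, adjusted p = 0.927), but gene totals also count transcripts that lack a deleted exon, so the labels are not checked by it. Markers of fibroblasts or feeders summed to 1.31 to 11.6 CPM per library over 6 genes, and those of immune, endothelial and melanocyte cells to at most 2.96 CPM, against 16310 to 36530 CPM for 5 keratinocyte identity genes.

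All 6 ligands were lower in atRA+PKCi than in FBS in wild-type HFSCs, by 3.45-fold to 12.8-fold. Among the receptors, Erbb3 fell less (log2 fold change -0.80), Egfr rose (0.46) and Erbb2 was not called. Of the 9 members, 7 were called lower and 1 higher at an adjusted p under 0.05 (edgeR quasi-likelihood test, Benjamini-Hochberg adjustment over all tested genes). Of all tested genes, 26.6% were called lower and 27.2% higher in this comparison. The median log2 fold change was -2.58 for the 6 ligands and 0.03 for all genes. Areg, the ligand with the highest level per kb in wild-type FBS, stood at 167 and 169 CPM in FBS and at 13.4 and 13.0 CPM in atRA+PKCi, a log2 fold change of -3.67 (SE 0.07, adjusted p = 1.06e-08). The 4 libraries split by medium with no overlap and with far more distance between media than between cultures. Epgn went from 139 and 146 CPM to 11.1 and 11.7 CPM (-3.65, SE 0.11, adjusted p = 2.89e-08). Hbegf, whose precursor also serves as the receptor of diphtheria toxin, went from 250 and 245 CPM to 39.2 and 43.0 CPM (-2.59, SE 0.08, adjusted p = 2.96e-08). Both groups were again apart for these ligands.

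Ereg, the gene of epiregulin, fell from 166 and 149 CPM to 25.8 and 27.6 CPM (-2.56, SE 0.08, adjusted p = 3.72e-08). Tgfa, the transforming growth factor alpha gene and a classical autocrine ligand of keratinocytes, fell from 216 and 186 CPM to 59.1 and 57.4 CPM (-1.79, SE 0.09, adjusted p = 6.31e-07). Tgfa kept more of its level than Areg and Epgn did, and its groups did not overlap. Btc was by far the scarcest ligand, with 2.12 and 1.55 CPM in FBS and 0.449 and 0.602 CPM in atRA+PKCi. These were 58 and 40 estimated counts against 14 and 19, and its fall (-1.79, SE 0.29, adjusted p = 8.84e-04) carried the largest error of the 9.

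Egfr rose as its ligands fell: it stood at 58.0 and 52.3 CPM in FBS and at 74.3 and 77.3 CPM in atRA+PKCi (log2 fold change 0.46, SE 0.08, adjusted p = 9.45e-04), and all its atRA+PKCi libraries were above its FBS libraries. Erbb3 fell from 81.7 and 62.5 CPM to 41.8 and 41.3 CPM (-0.80, SE 0.14, adjusted p = 0.00124), and here the FBS cultures differed more from each other than those in atRA+PKCi. Erbb2 stood at 54.0 and 41.6 CPM in FBS and at 47.0 and 44.8 CPM in atRA+PKCi, so that its groups overlapped (-0.06, 95% interval -0.32 to 0.20, adjusted p = 0.683). Without wild-type FBS replicate 2, Erbb2 was called lower (-0.24, adjusted p = 0.0316).

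**Figure D1:**
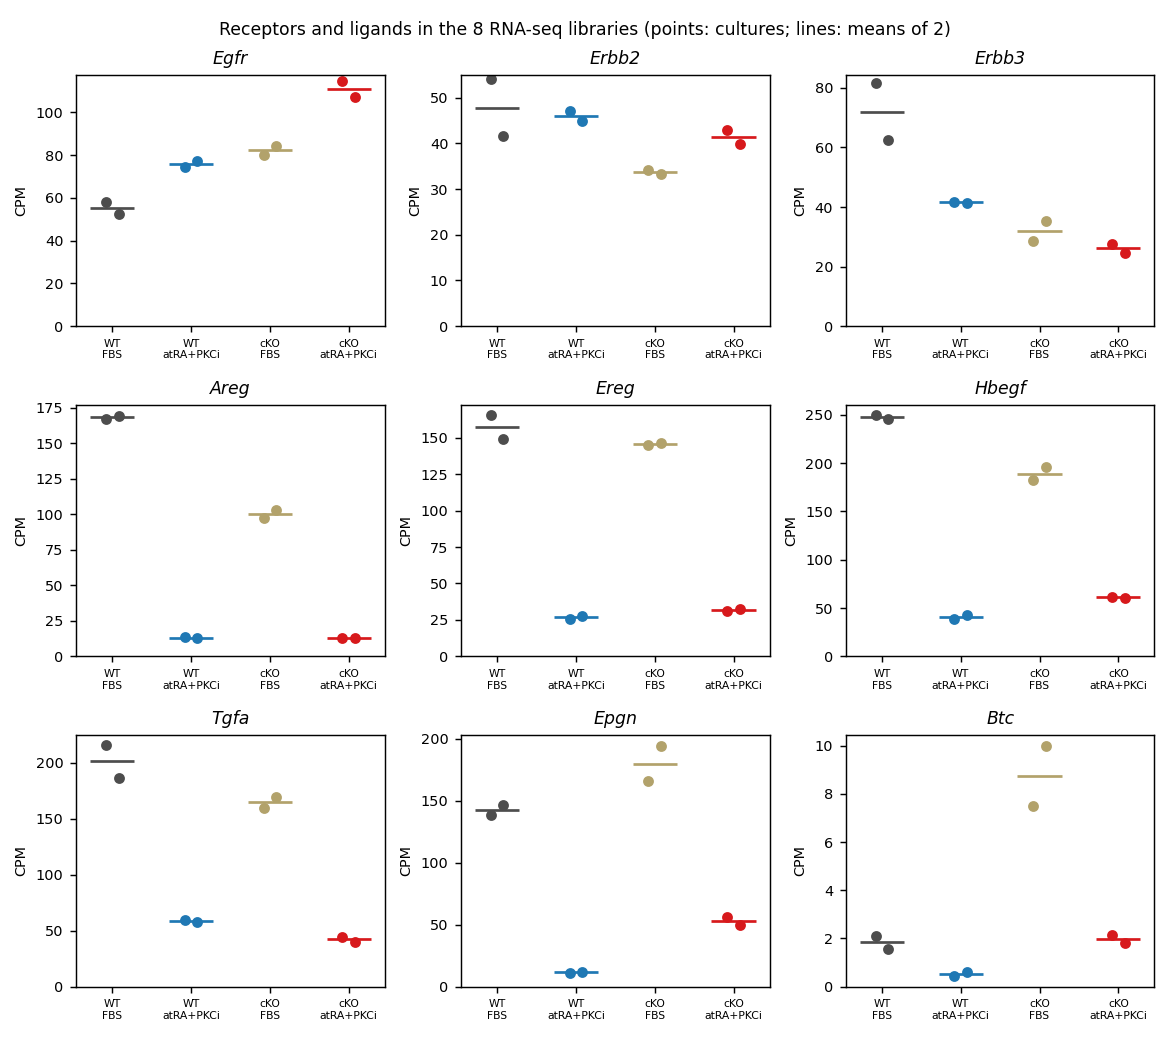
CPM of the 3 receptors and 6 ligands (vertical axes, from 0) in the 4 culture groups (horizontal axes; WT, wild-type). Points are single cultures and lines are means of 2. The ligand panels drop from FBS to atRA+PKCi in both genotypes, as for Areg from 167 and 169 to 13.4 and 13.0 CPM in wild-type, while Egfr goes up.

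On the scale of mean CPM per kb, the order of levels in wild-type FBS was Areg (138 ± 1.13, SD, n = 2), Epgn (78.9 ± 2.93), Hbegf (51.2 ± 0.68), Ereg (38.1 ± 2.84), Tgfa (31.0 ± 3.23), Erbb3 (11.98 ± 2.25), Erbb2 (9.18 ± 1.68), Egfr (4.87 ± 0.36) and Btc (0.41 ± 0.09). Only Erbb3 and Erbb2, neighbours in this order, lay within their spread. In wild-type atRA+PKCi, the 8 members other than Btc were all between 6.31 ± 0.21 (Epgn) and 10.9 ± 0.28 (Areg), and Btc was at 0.12 ± 0.02. In that medium the levels of Tgfa (8.98 ± 0.19), Erbb2 (8.81 ± 0.30) and Hbegf (8.50 ± 0.57) lay within their spread of each other. The same held for Erbb3 (6.91 ± 0.06), Egfr (6.69 ± 0.19), Ereg (6.47 ± 0.31) and Epgn as neighbours. Ligand genes that had stood well above the receptors per kb in FBS were thus near receptor levels in atRA+PKCi, with Btc below them in both media.

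In Rxra cKO HFSCs all 6 ligands were again lower in atRA+PKCi than in FBS, by 3.09-fold to 7.80-fold. The members counted 6 lower, 1 higher and 2 not called, beside 22.2% lower and 20.8% higher among all tested genes. Areg went from 97.0 and 103 CPM to 12.8 and 12.9 CPM (-2.96, adjusted p = 4.59e-08). Ereg went from 145 and 147 to 30.9 and 32.5 CPM (-2.20, adjusted p = 3.20e-07). Areg thus ended near its wild-type level in this medium. Tgfa went from 160 and 169 to 44.4 and 40.0 CPM (-1.96, adjusted p = 1.06e-06). Hbegf went from 182 and 196 to 61.9 and 60.3 CPM (-1.63, adjusted p = 8.89e-07). Epgn, the strongest ligand per kb in these cultures, went from 166 and 194 to 55.8 and 49.6 CPM (-1.77, adjusted p = 2.09e-06). Btc went from 7.52 and 9.98 to 2.12 and 1.83 CPM (-2.14, adjusted p = 1.66e-04). In each of these ligands the media were apart without overlap, a split that was not counted over all genes.

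Among the receptors in cKO, Egfr went up from 80.2 and 84.5 CPM to 115 and 107 CPM (0.43, adjusted p = 0.00184). Erbb2 stood at 34.1 and 33.2 CPM in FBS and at 43.0 and 39.9 CPM in atRA+PKCi, which were apart but not called (0.30, 95% interval 0.04 to 0.57, adjusted p = 0.0607). Its call turned on the fit, since Erbb2 was called higher with the mouse as a replicate block (0.30, adjusted p = 0.0355), with only the 4 cKO libraries (adjusted p = 0.00762), with genes of low counts kept in (adjusted p = 0.00864), and when the first (adjusted p = 0.00605) or the second (adjusted p = 0.0058) of the wild-type FBS libraries was left out. Erbb3 stood at 28.7 and 35.4 CPM in FBS and at 27.5 and 24.7 CPM in atRA+PKCi (-0.30, 95% interval -0.62 to 0.03, adjusted p = 0.127), and was called lower with genes of low counts kept in (adjusted p = 0.00988) and when the first (adjusted p = 0.0465) or the second (adjusted p = 0.0451) of the wild-type FBS libraries was left out.

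Between genotypes in FBS, 3 members were higher in cKO, 5 were lower and 1 was not called, beside 22.3% of all tested genes higher and 20.5% lower. Btc differed most, with 7.52 and 9.98 CPM in cKO against 2.12 and 1.55 CPM in wild-type (log2 fold change 2.25, SE 0.25, adjusted p = 1.49e-04, 4.76-fold higher). Erbb3 was lower, at 28.7 and 35.4 against 81.7 and 62.5 CPM (-1.17, SE 0.14, adjusted p = 2.35e-04), and so was Areg, at 97.0 and 103 against 167 and 169 CPM (-0.75, SE 0.06, adjusted p = 2.88e-05). The genotypes did not overlap in these 3 genes, again with no such count over all genes. Egfr was higher (0.58, adjusted p = 3.93e-04), Erbb2 lower (-0.51, adjusted p = 0.00706) and Hbegf lower (-0.39, adjusted p = 0.00231). Ereg was not called (-0.11, 95% interval -0.27 to 0.06, adjusted p = 0.269). The remaining calls were small and each rested on single libraries. Epgn was higher (0.34, adjusted p = 0.0161) but not called when wild-type FBS replicate 1 (adjusted p = 0.0604) was left out, or cKO FBS replicate 2 (adjusted p = 0.115). Tgfa was lower (-0.29, adjusted p = 0.0256) but not called without wild-type FBS replicate 1 (adjusted p = 0.119), cKO FBS replicate 1 (adjusted p = 0.106) or cKO FBS replicate 2 (adjusted p = 0.0606), nor with only the 4 libraries compared (adjusted p = 0.0763).

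In atRA+PKCi, 5 members were higher in cKO, 2 were lower and 2 were not called, with 23% of all tested genes higher and 20.2% lower. Epgn stood out, at 55.8 and 49.6 CPM in cKO against 11.1 and 11.7 CPM in wild-type (2.21, SE 0.10, adjusted p = 9.94e-07, 4.63-fold higher). Btc was 3.74-fold higher (1.91, SE 0.29, adjusted p = 8.09e-04), on 81 and 49 estimated counts against 14 and 19. Hbegf was higher at 61.9 and 60.3 against 39.2 and 43.0 CPM (0.57, SE 0.07, adjusted p = 3.21e-04). In each of these genes all cKO libraries were above all wild-type libraries, which was not counted over all genes. Egfr was higher by the same measure (0.55, adjusted p = 4.37e-04), Tgfa lower (-0.46, adjusted p = 0.00333) and Erbb3 lower (-0.67, adjusted p = 0.00484). Areg, at 12.8 and 12.9 against 13.4 and 13.0 CPM, was not called (-0.04, 95% interval -0.21 to 0.13, adjusted p = 0.698), nor was Erbb2 (-0.14, 95% interval -0.40 to 0.11, adjusted p = 0.338). The rise of Ereg (0.25, adjusted p = 0.0314) was lost when any of the 4 atRA+PKCi libraries was left out, with adjusted p of 0.115 and 0.0624 without wild-type replicate 1 and 2, and of 0.0557 and 0.17 without cKO replicate 1 and 2.

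Whether the effect of the medium differed between genotypes was tested as an interaction, the log2 medium effect in wild-type minus that in cKO. It was called for 4 of the 9 members, all ligands and all with the larger fall in wild-type, beside 13.3% of all tested genes in this direction and 11.3% in the other. The difference was -1.87 for Epgn (SE 0.14, adjusted p = 3.88e-05), whose fall was 12.5-fold in wild-type and 3.42-fold in cKO. It was -0.96 for Hbegf (SE 0.10, adjusted p = 2.91e-04), with falls of 6.03-fold and 3.09-fold, and -0.71 for Areg (SE 0.10, adjusted p = 9.79e-04), with falls of 12.8-fold and 7.80-fold. For Areg the genotypes differed in FBS and not by a call in atRA+PKCi, whereas Epgn differed most in atRA+PKCi. The call for Ereg (-0.36, SE 0.11, adjusted p = 0.0411) was lost with the mouse as a replicate block (adjusted p = 0.0642). It was also lost without any 1 of the libraries other than wild-type FBS replicate 2, with adjusted p from 0.0626 without cKO FBS replicate 1 to 0.159 without cKO atRA+PKCi replicate 2. No difference was called for Egfr (0.03, 95% interval -0.21 to 0.27), Tgfa (0.17, -0.11 to 0.46) or Btc (0.35, -0.54 to 1.24). Erbb2 (-0.36, adjusted p = 0.14) and Erbb3 (-0.50, adjusted p = 0.103) were not called either, but both were when wild-type FBS replicate 2 was left out, at adjusted p of 0.00565 and 0.0144. Both were also called with all 8 libraries when genes of low counts were kept in, at adjusted p of 0.0315 and 0.00143.

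**Figure D2:**
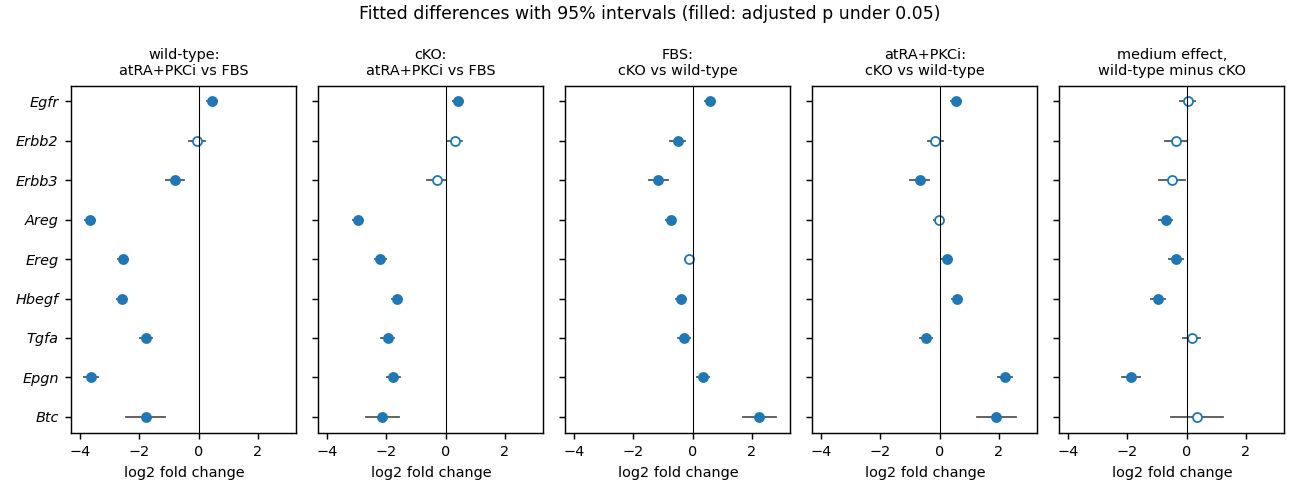
Fitted log2 fold changes (horizontal axes) with 95% intervals for the 9 members (rows) in the 4 comparisons and for the medium effect in wild-type minus cKO. Filled points have an adjusted p under 0.05. The 6 ligands sit left of 0 in both medium panels, and Epgn moves furthest from 0 in the last panel (-1.87).

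Suprabasal keratinocyte genes moved with the ligands in some comparisons and only partly with them in others. A list of 6 (Krt1, Krt10, Krtdap, Sbsn, Ivl and Lor) summed to 2209 and 2452 CPM in wild-type FBS, 280 and 297 CPM in wild-type atRA+PKCi, 1427 and 1769 CPM in cKO FBS, and 623 and 599 CPM in cKO atRA+PKCi. In wild-type, 5 of the 6 were lower in atRA+PKCi, and in atRA+PKCi 5 of the 6 were higher in cKO, none lower, among them Krtdap at 88.5 and 82.4 against 0.80 and 0.98 CPM. In cKO, where all 6 ligands were lower in atRA+PKCi, 4 of the 6 were lower and 2 were higher, namely Krt1 (2.95 CPM in FBS and 38.4 CPM in atRA+PKCi, means of 2) and Krt10 (8.48 and 26.3 CPM). In FBS, 5 of the 6 were lower in cKO and Ivl was higher. Of the ligands in FBS, Areg, Hbegf and Tgfa were lower in cKO, Epgn and Btc were higher and Ereg was not called. None of the 6 suprabasal genes was at 0 in any library. In bulk samples, fewer cells of a type and less RNA per cell cannot be told apart, and the part of this list in the ligand differences was not tested.

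Genes whose CPM across the 8 libraries was most like each member were sought as a description, by Pearson's r of log2 levels, with the 4 groups of 2 setting most of the pattern. The closest were Elovl1 for Areg (0.998), Inhba, the activin A subunit gene, for Ereg (0.998), Prl8a9 for Hbegf (0.999), Tmem51 for Tgfa (0.996), Rnf11 for Epgn (0.999) and Ssr3 for Btc (0.993). For the receptors they were Abcc5 for Egfr (0.993), Phf2 for Erbb2 (0.981) and Itpk1 for Erbb3 (0.988).

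The rest of the pathway was read from lists of its parts. Of all tested genes, 26.6% were lower and 27.2% higher with atRA+PKCi in wild-type, and 22.2% and 20.8% in cKO. In cKO against wild-type, 20.5% were lower and 22.3% higher in FBS, and 20.2% and 23% in atRA+PKCi. The counts below are to be read beside these shares. The other ErbB receptor, Erbb4, was at 0 to 0.03 CPM, and of the other ligands Nrg3 was at 0 in all 8 libraries and Nrg4 at 0.11 CPM or less. Nrg1, a neuregulin that binds Erbb3, was lower in atRA+PKCi in both genotypes: it stood at 101 and 93.2 CPM in wild-type FBS and at 29.8 and 31.1 CPM in wild-type atRA+PKCi (-1.68, adjusted p = 1.85e-07), and at 114 and 114 against 19.1 and 18.6 CPM in cKO (-2.60, adjusted p = 1.05e-07). Its fall was larger in cKO (interaction 0.93, SE 0.10, adjusted p = 2.87e-04), whereas the 4 EGFR ligands called for the interaction fell more in wild-type. Nrg2 rose by 0.40 in wild-type (adjusted p = 0.0125) and fell by 1.24 in cKO (adjusted p = 5.41e-05). Egf, at 0.18 to 0.98 CPM, was scarce in every library.

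Of 6 genes for ligand shedding, 3 fell and 1 rose with atRA+PKCi in wild-type (median -0.38, all genes 0.03), and 1 fell in cKO (median -0.17, all genes 0.02). Adam17, the main sheddase of Areg and Tgfa, was called in no comparison. Adam15, a related metalloprotease, stood at 33.8 and 30.3 CPM in wild-type FBS and at 16.7 and 16.2 CPM in atRA+PKCi (-0.96, adjusted p = 2.32e-05), but at 31.4 to 34.6 CPM in all 4 cKO libraries, and its medium effect differed between genotypes (-1.01, adjusted p = 5.37e-04). Rhbdf2, which carries Adam17 to the cell surface, fell by 0.55 (adjusted p = 0.00649), Adam9 fell by 0.55 (adjusted p = 2.64e-04) and Adam10 rose by 0.26 (adjusted p = 0.0124) in wild-type.

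Of 12 feedback inhibitors of the receptors or of ERK, 6 fell and none rose in wild-type (median -0.62), and 8 fell and 1 rose in cKO (median -0.27). Dusp5, a nuclear ERK phosphatase, stood at 114 and 111 CPM in wild-type FBS, at 13.3 and 15.4 CPM in wild-type atRA+PKCi (-2.97, adjusted p = 4.01e-08), and at 46.9 and 50.8 CPM in cKO atRA+PKCi. Its 4 groups stood in the same order as those of Epgn, and its medium effect differed between genotypes (-1.61, adjusted p = 4.95e-05). Dusp4 fell by 2.10 in wild-type (adjusted p = 5.30e-07), and Errfi1, whose product binds and inhibits EGFR itself, fell by 1.08 (adjusted p = 1.18e-05). Spry4 was near 0 in wild-type atRA+PKCi, with 2 and 0 estimated counts against 29 and 29 in FBS. Dusp6, the cytoplasmic ERK phosphatase, was not lower in wild-type atRA+PKCi, at 176 and 172 CPM against 176 and 159 CPM. In FBS, 6 of the 12 were lower in cKO and none higher (median -0.42, all genes 0.02), and in atRA+PKCi 3 were higher and 3 lower (median 0.03).

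Of 16 adaptors and kinases of the ERK cascade, 8 fell and 1 rose in wild-type (median -0.19, all genes 0.03), and 8 fell and 2 rose in cKO (median -0.29, all genes 0.02). Falls were modest. Mapk3, which codes for ERK1, went from 215 and 229 CPM to 101 and 95.9 CPM in wild-type (-1.17, adjusted p = 2.23e-06). Map2k1 and Map2k2, the MEK genes, fell by 1.11 (adjusted p = 1.20e-06) and 0.94 (adjusted p = 1.87e-05). Gab1, a docking adaptor, was the one that rose in wild-type (0.82, adjusted p = 7.96e-05).

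The 13 ERK-induced target genes did not move one way: in wild-type 6 fell and 4 rose (median 0.00), and in cKO 5 fell and 5 rose (median 0.11). Fosl1, an AP-1 subunit, fell from 97.5 and 84.3 CPM to 17.7 and 16.7 CPM in wild-type (-2.40, adjusted p = 1.10e-07) and by 2.25 in cKO (adjusted p = 6.00e-07). Ier3 fell by 2.06 (adjusted p = 5.81e-08) and Phlda1 by 2.05 (adjusted p = 4.74e-07) in wild-type, and Etv4 fell by 3.11 in cKO (adjusted p = 1.04e-06). Fosb, another AP-1 subunit, went the other way, from 66.2 and 46.1 CPM to 436 and 443 CPM in wild-type (2.97, adjusted p = 1.12e-06). Ccnd1 went from 246.5 to 463.8 CPM in wild-type (means of 2). In cKO, Fosb went from 19.95 to 78.1 CPM (means of 2), and Egr1 rose by 1.87 (adjusted p = 1.01e-05). Between genotypes in FBS, 9 of the 13 were lower in cKO and 3 higher (median -0.68), led by Fos, at 70.3 and 65.1 against 405 and 323 CPM (-2.43, adjusted p = 1.66e-06). In atRA+PKCi, 6 were lower and 2 higher in cKO (median -0.24).

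**Figure D3:**
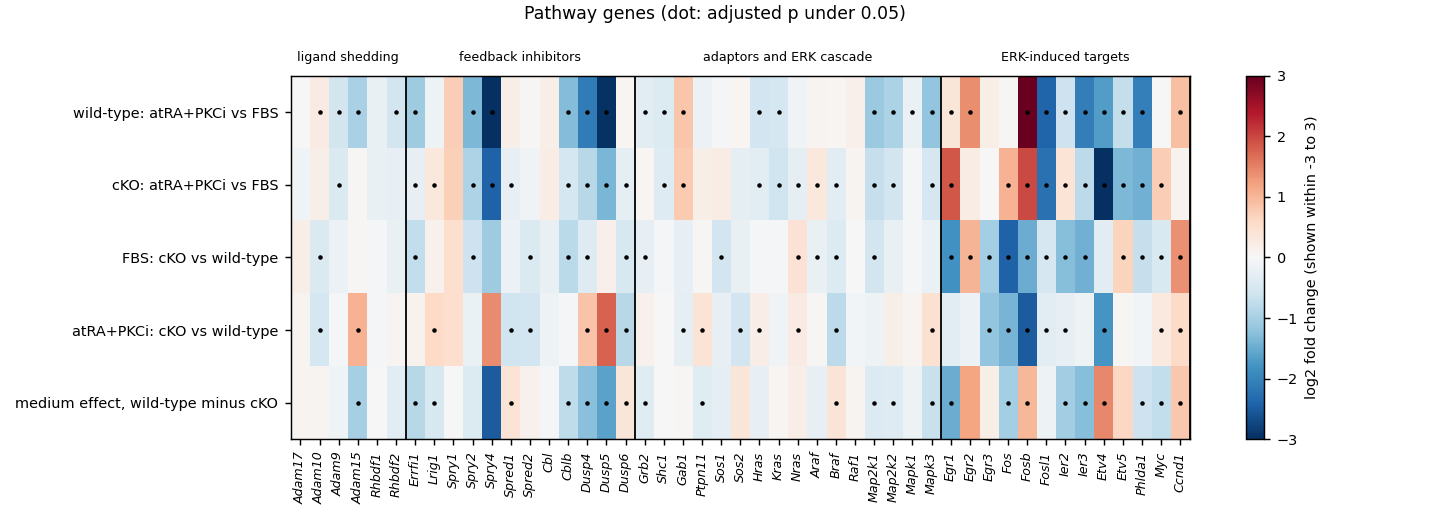
Log2 fold changes (colour, shown within -3 to 3) of the pathway genes outside the family (columns, by list) in the 4 comparisons and for the medium effect in wild-type minus cKO (rows). Dots mark an adjusted p under 0.05. Among feedback inhibitors, Dusp5 (-2.97 in wild-type) is blue in both medium rows, Lrig1 is red with a dot in the cKO medium row, and ERK-induced targets are mixed.

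In the cultured single cells, hashtag antibodies marked the condition of each cell. Of 449 and 208 barcodes (none shared), 222 cells of mouse 1 and 78 of mouse 2 were kept. The limit of 10% mitochondrial UMIs removed 187 and 114 barcodes. The paper's figures show more cultured cells than these matrices hold. No kept cell carried the FBS tag, and only 2 and 1 carried that of atRA+PKCi, so the RNA-seq comparison could not be repeated. The B-27 cultures held 5 and 10 cells, those with BMP 113 and 13, with Rspo+BMP 92 and 27, and with Rspo+BMP+RARi 5 and 21. Rspo is R-spondin, which strengthens WNT signals, and RARi a retinoic acid receptor inhibitor. The tag names neither the kind of BMP, a bone morphogenetic protein, nor the base medium. For its single cell figure, however, the study describes the cultures given Rspo, BMP or RARi as treated with atRA and PKCi too. Against B-27, the effects of BMP and of atRA+PKCi thus cannot be told apart. UMIs were summed per mouse and condition, and 7 of the 9 members passed the filter in the 6265 genes tested.

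In cultures with the BMP tag, 3 members were lower than in B-27 and none was higher, beside 8.83% of tested genes lower and 1.53% higher. Tgfa was at 312 and 223 CPM of summed UMIs in B-27 and at 16.0 and 11.7 CPM with BMP in mouse 1 and 2 (log2 fold change -4.02, SE 0.50, adjusted p = 2.08e-05). The call for Tgfa held without any 1 of these sums. Egfr was at 577 and 205 CPM in B-27 and at 57.9 and 97.9 CPM with BMP (-2.22, SE 0.54, adjusted p = 0.0104). Erbb3 was at 52.9 and 95.6 CPM and at 11.9 and 7.83 CPM (-2.66, SE 0.58, adjusted p = 0.00449). The conditions did not overlap in these 3 genes, and such splits were not counted over all genes. The calls for both receptors were less firm. Egfr was not called without the B-27 sum of mouse 1 (adjusted p = 0.289) or the BMP sum of mouse 1 (adjusted p = 0.271) or 2 (adjusted p = 0.0829). Erbb3 was not called without the B-27 sum of mouse 2 (adjusted p = 0.158) or the BMP sum of mouse 1 (adjusted p = 0.128) or 2 (adjusted p = 0.116).

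Areg was at 52.9 and 54.6 CPM in B-27 and at 20.0 and 11.7 CPM with BMP, apart in both mice but not called (-1.46, adjusted p = 0.0931). Hbegf stood the other way round, at 111 and 109 against 190 and 164 CPM, and was not called (0.80, 95% interval -0.29 to 1.89, adjusted p = 0.353). Erbb2 (-1.76, adjusted p = 0.182) and Epgn (-1.60, adjusted p = 0.299) rested on few UMIs, such as 10 and 1 for Epgn in B-27. Ereg and Btc were too scarce to test. Ereg had 0 UMIs in both B-27 sums, where 3 UMIs would have been 15.9 and 13.7 CPM, and 3.52 and 5.87 CPM with BMP, so its level could not be compared at this depth. Suprabasal genes fell here too, 3 of the 4 that were tested (Sbsn -4.56, adjusted p = 3.99e-05), and of 8 tested feedback inhibitors Dusp5 fell (-1.92, adjusted p = 0.00304) and Spred2 rose (2.15, adjusted p = 0.0154).

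Neither the addition of Rspo to BMP nor that of RARi gave a called gene by edgeR at an adjusted p under 0.05 (0% higher and 0% lower in both), while 44 and 233 genes had an unadjusted p under 0.05, and DESeq2 called none either. For Tgfa, the Rspo comparison gave 23.8 and 42.1 CPM against 16.0 and 11.7 CPM (1.00, 95% interval -0.01 to 2.02). For Egfr with RARi, 333 and 123 CPM stood against 89.1 and 160 CPM (0.53, -0.59 to 1.66), and the mice went opposite ways. Hbegf with RARi was at 52.0 and 143 against 152 and 221 CPM (-0.87, -1.93 to 0.20). Hbegf was lower in each mouse and called only without the RARi sum of mouse 2 (-2.37, adjusted p = 0.0293), which leaves the sum of 5 cells alone in its group. Rspo without BMP gave 124 and 41.3 CPM of Areg and 51.1 and 13.8 CPM of Tgfa on 5 and 6 cells.

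**Figure D4:**
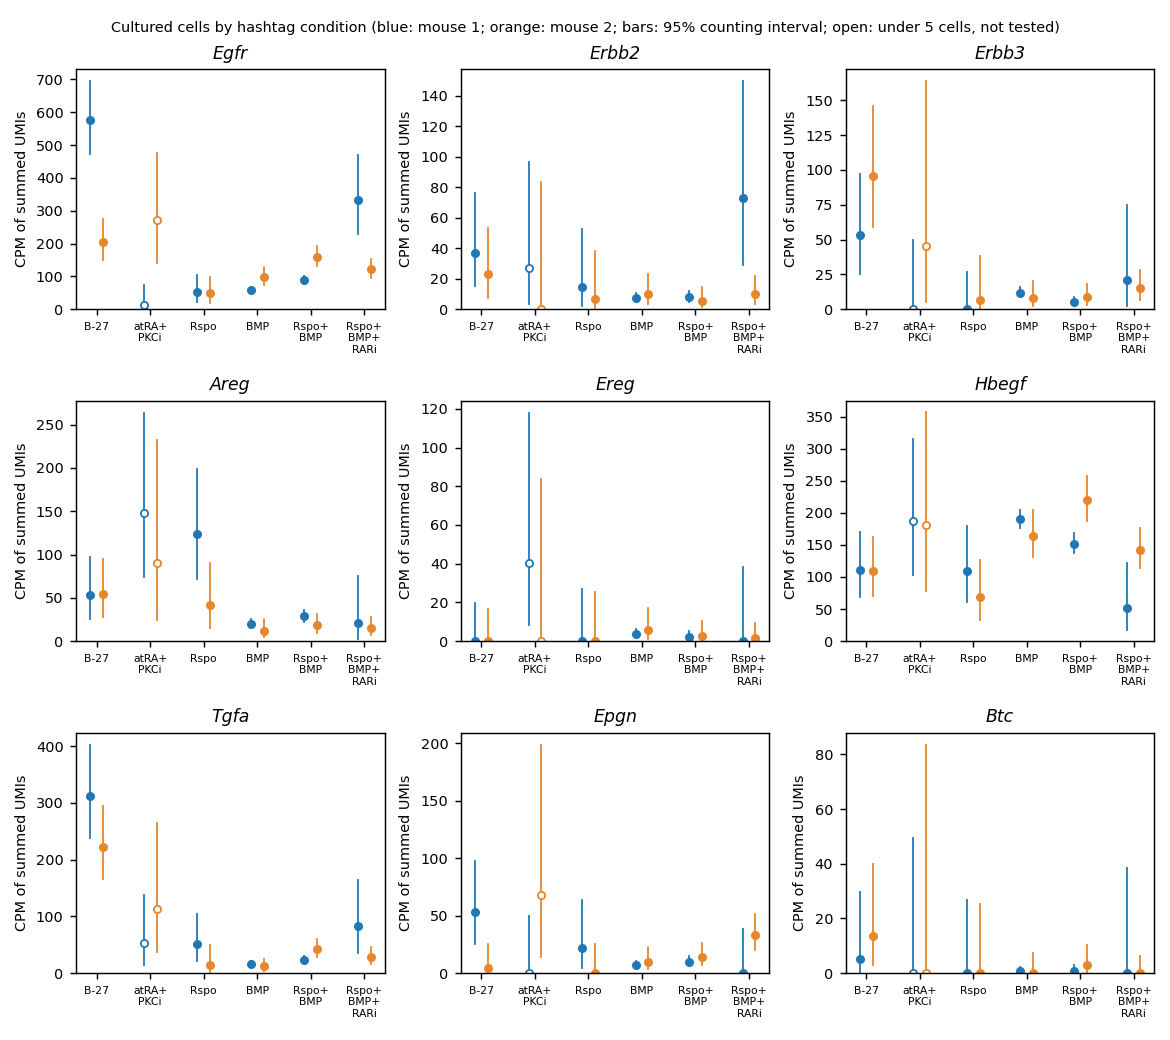
CPM of summed UMIs (vertical axes, from 0) of the 9 members in the cultured cells by hashtag condition (horizontal axes), mouse 1 in blue and mouse 2 in orange. Bars are 95% counting intervals and open points rest on under 5 cells. Tgfa is highest in B-27, at 312 and 223 CPM, and Hbegf is not.

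In the back skin matrices, 26982 cells were kept from 16521 and 16068 barcodes (62 barcodes occurred in both). They formed 38 clusters when the members and pathway genes were left out of clustering, of which 26 fell into 14 classes named from markers and 12 stayed unnamed. The sort had been set against CD45, CD31, CD140a and CD117, yet 10635 cells (39.4%) were fibroblast-like, 668 immune-like and 209 endothelial-like, so shares of cells do not describe the skin. Levels below are CPM of summed UMIs in mouse 1 and mouse 2, compared only within a gene and without a test.

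Areg, Epgn and Btc were each highest in 1 small epithelial group. Areg reached 2378 and 2739 CPM in cluster 13, a group of 161 cells led by Areg itself, Wfdc2 and the simple-epithelium keratins Krt18, Krt8 and Krt19, with Prlr, the prolactin receptor gene, among its leading genes. There 92.9% and 87.8% of cells had an Areg UMI, against 1.13% and 1.23% of fibroblast-like cells, at median depths of 10234 and 16959 against 8820 and 12011 UMIs per cell. Suprabasal-like cells came next (99.5 and 47.3 CPM), then inner root sheath-like cells (7.95 and 6.59 CPM), and the other 23 groups were at 5.69 CPM or less in each mouse. Epgn was instead highest in suprabasal-like cells, at 49.4 and 63.5 CPM, with all others at 5.98 CPM or less. Btc was highest in cluster 13 (39.7 and 56.6 CPM), then in cluster 28 (15.4 and 19.0 CPM), a group of 135 cells led by milk protein genes such as Csn3. Apart from sebaceous markers, no list of gland markers was fixed for naming, and whether clusters 13 and 28 are gland cells was not tested. Of these neighbours on chromosome 5, Areg and Btc were thus highest in the same cluster and Epgn in suprabasal-like cells.

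Hbegf was spread wider. It stood at 67.6 and 78.3 CPM in suprabasal-like cells, 63.3 and 44.0 CPM in Schwann-like cells, 73.8 and 24.6 CPM in cluster 18 (led by Aqp3, Col17a1 and Krt15), 54.1 and 41.2 CPM in endothelial-like cells and 41.1 and 29.8 CPM in outer root sheath (ORS)-like cells. The order of these 5 groups differed between the mice, and the others lay at 20.0 CPM or less. Tgfa and Ereg were low everywhere: Tgfa was at most 14.9 CPM (cluster 13, mouse 1), with a median over the 26 groups of 2.53 CPM, and Ereg at most 5.66 CPM (suprabasal-like, mouse 1, 14 UMIs in 2 cells). No order among groups can be read for them.

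The receptors followed other patterns. Erbb3 was highest in Schwann-like cells (127 and 152 CPM), whose survival is known to need neuregulin signals, then in cluster 13 (107 and 89.3 CPM), cluster 28 (80.1 and 73.9 CPM), suprabasal-like (72.8 and 60.2 CPM) and melanocyte-like cells (46.5 and 47.4 CPM). Fibroblast-like cells stood at 3.65 and 4.02 CPM. The first 4 ranks of Erbb3 were the same in both mice. Erbb2 had no single high group, with 44.8 and 49.0 CPM in inner root sheath-like and 46.5 and 44.3 CPM in suprabasal-like cells, which overlapped, and its median over the 26 groups was 17.1 CPM.

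Egfr UMIs were found in every group. Cluster 36, 30 and 243 cells led by St6galnac3, Gramd1b and Hmcn1, had 2905 and 3379 CPM. These genes were also among the leading genes of a fibroblast-like cluster. Cluster 33 (Car3, Fgf10 and Fabp4) had 1166 and 1585 CPM, and cluster 3 (Grm7, Slc39a10 and Lgr5) 1133 and 1399 CPM. Fibroblast-like cells had 742 and 1036 CPM and ORS-like cells 638 and 888 CPM, and the mice differed by more than these neighbours did. Erythroid-like cells, which should lack the receptor, still showed 275 and 307 CPM, with an Egfr UMI in 51.2% and 55.4% of cells at median depths of 5985 and 4974 UMIs. Levels near or below these stood in mural-like, immune-like, melanocyte-like and dermal papilla-like cells and in clusters 13 and 28. How much of them is background was not tested. Cluster 13, with the most Areg, was among the groups with the lowest mean Egfr level, at 89.3 and 328 CPM.

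**Figure D5:**
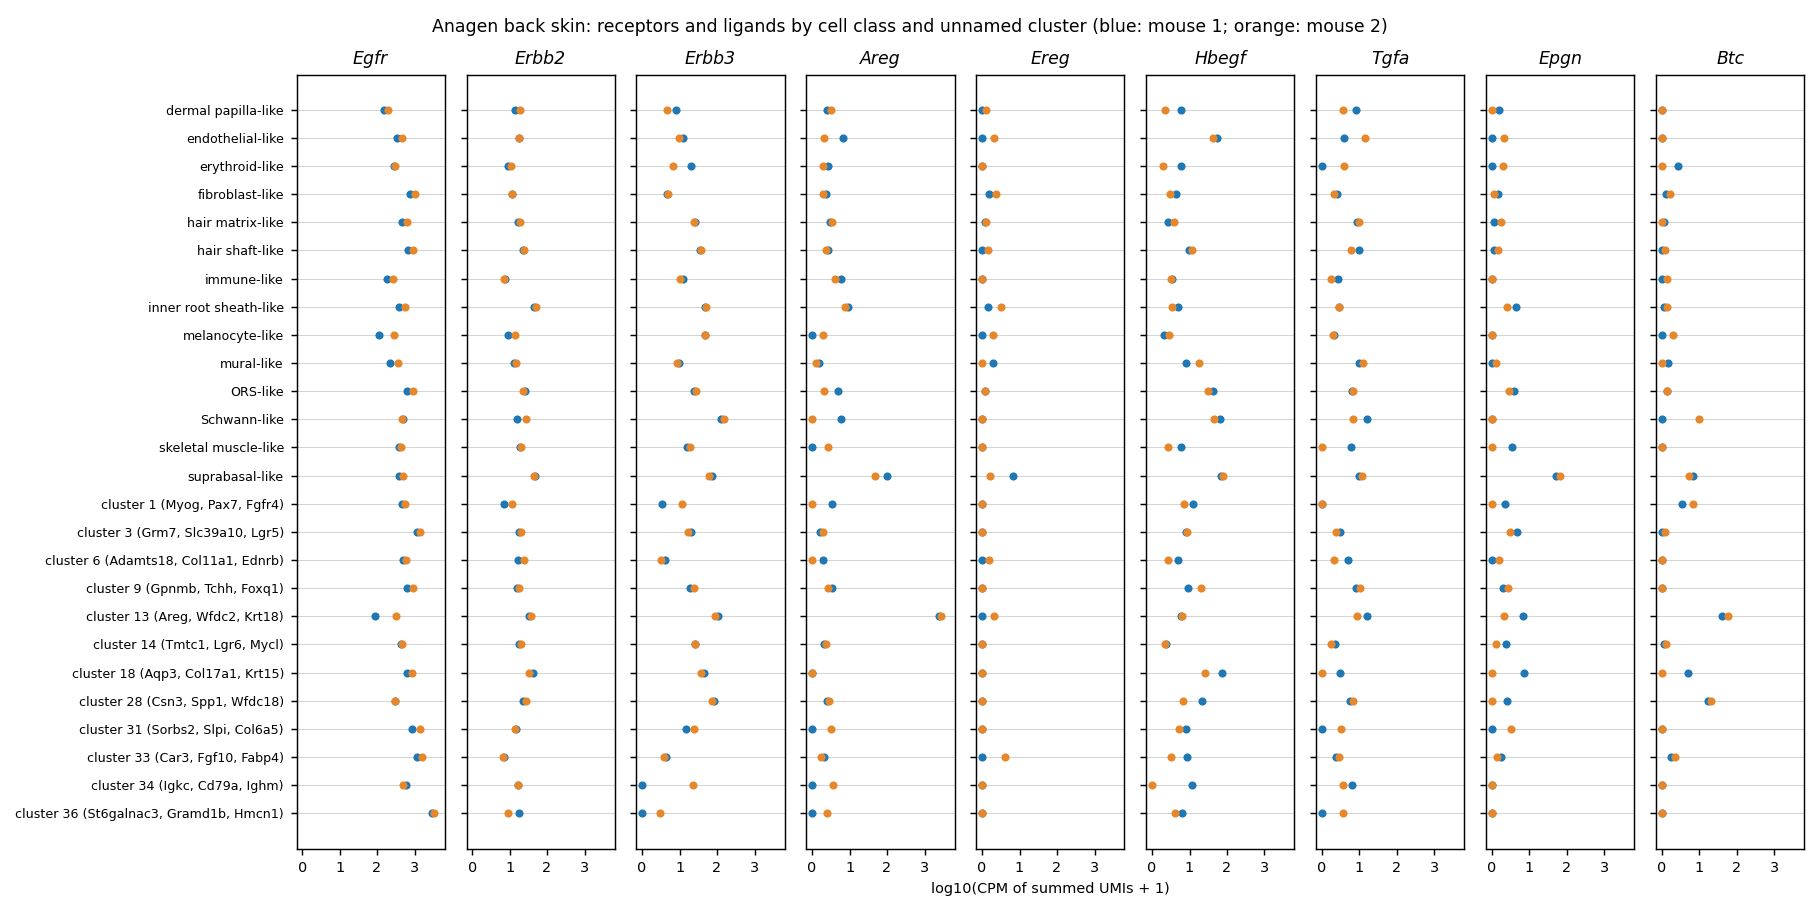
Levels of the 9 members (panels) in 14 named classes and 12 unnamed clusters of back skin cells (rows), as log10 of CPM of summed UMIs + 1 (horizontal axes). Blue is mouse 1 and orange is mouse 2. Areg peaks in cluster 13 (2378 and 2739 CPM), Epgn in suprabasal-like cells, Erbb3 in Schwann-like cells, and Egfr lies above 89 CPM in every row.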

How the data were processed

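The members and gene lists were chosen with earlier results of these data known. For RNA-seq, the authors quantified reads with Salmon 1.4.0, which the submitters' processing notes name, summed them per gene with tximport on mm10, and deposited estimated counts, which were rounded here. The single cell matrices that the authors deposited hold UMI counts per gene and cell from Cell Ranger (7.0.1 in the processing notes), without removal of ambient RNA. The quasi-likelihood test of edgeR 4.0.16 (R 4.3.3) was run on them after filterByExpr and TMM scaling, with 1 mean for each of the 4 groups over 8 libraries, and calls were made at an adjusted p (Benjamini-Hochberg) under 0.05. The labels name the mouse, by number, that each culture came from, so numbers pair media within a genotype. Their deviations from the group means correlated at 0.0668 in wild-type and -0.0188 in cKO over 15965 genes, and at -0.291 to 0.25 in the cultured cells, and the main fit had no block.

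Cells with at least 500 genes, at least 1000 UMIs and under 10% mitochondrial UMIs were kept. HTODemux of Seurat 5.3.0 assigned hashtags (positive quantile 0.99), doublets left out, and UMI sums with at least 5 cells in both mice tested with edgeR. In vivo doublets were called with Scrublet in scanpy 1.11.5. Its automatic threshold marked no cell of mouse 2, so that of mouse 1 (0.168) served for both, marking 5.74% and 4.03%. Clusters (Leiden, resolution 1) were named from at least 3 detected markers. Exonic lengths came from GENCODE on GRCm38. Counting intervals are exact and cover counting error only. The fits were tested on simulated data with few genes changed, all upward, and no other difference between groups. Of genes changed by 1 and by 2 on the log2 scale, 83% and 98% were called in the wild-type comparison (15438 genes). The interaction called 77% and 95% (15463 genes), and 67% of genes changed by 2 were called in the cultured cells (5896 genes). False calls numbered 8, 18 and 4. In the same comparisons of the real data more genes were called, in both directions, so these shares may not hold there. Alternatives were DESeq2 1.42.0, no filter, leaving out each library or sum, only the 4 libraries compared, a replicate block, other hashtag and mitochondrial limits, and, chosen after seeing the data, hashtag counts scaled per cell and leaving out barcodes found in both skin matrices. Named genes were the 9 members in every comparison and, from each list, up to 3 called genes with the largest change each way; others named (Adam17, Adam15 levels, Errfi1, Dusp6, Spry4 counts) were chosen after their values were seen. Chromatin files were not used here. Figures were drawn with matplotlib 3.10.9.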

Additional observations from a re-analysis of the deposited data

Results flagged for a closer look

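The effect of the medium differed between genotypes, by the interaction test of the difference itself, in 4 ligands, each with the larger fall in wild-type. The log2 difference was -1.87 for Epgn, -0.96 for Hbegf, -0.71 for Areg and -0.36 for Ereg, and it lay on the same side of 0 in every alternative for these 4. The fitted call for Ereg alone was lost under alternatives. Epgn, Hbegf and Ereg were higher in cKO than in wild-type in atRA+PKCi, and for Areg the genotypes differed in FBS. Values of the suprabasal list that moved with these ligands stand in the report, and its part in them was not tested. Groups of 2 were too small for a test of single outlying libraries.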

How the results depend on the processing

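Of 723 values of member fold changes under the alternatives, 685 kept their side of the threshold, 24 lost a call, 14 gained one and none reversed a call. Of 66 member fold changes, 56 had 1 sign throughout, and none of the 10 others was called as reported. With the replicate block, the count of members higher in cKO atRA+PKCi was 2 instead of 1 (also 2 without the filter and with only the 4 libraries compared), Erbb2 in cKO (0.30, adjusted p = 0.0355) gained its call and the interaction of Ereg (adjusted p = 0.0642) lost it, and no other member call changed under the block. In cultures, BMP against B-27 gave 166 genes higher without the filter, 319 under 20% mitochondrial UMIs, and 279 higher and 851 lower with hashtags by 70% of counts. Rspo+BMP against BMP gave 7 higher and 5 lower without the filter and 1 higher under 20% mitochondrial UMIs. RARi gave 7 higher and 2 lower without the filter, and 9 higher and 3 lower with hashtags by 70% of counts. In skin, with at least 1000 genes and under 5% mitochondrial UMIs, mean levels were 38.7 CPM for Erbb2 in inner root sheath-like cells and 85.8 CPM for Hbegf and 69.1 CPM for Epgn in suprabasal-like cells. The cause was not tested for any of these.

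Leaving out 1 library at a time gave these ranges. In cKO by medium, 2133 to 3724 genes were higher, 2326 to 3890 lower, and 1 to 2 members higher. In atRA+PKCi by genotype 1971 to 3555 genes were lower. By the interaction 961 to 1878 were higher and 1375 to 2484 lower. Log2 fold changes of Erbb2 ran from -0.24 to 0.14 (wild-type by medium), 0.27 to 0.36 (cKO by medium) and -0.54 to -0.17 (interaction), of Erbb3 from -0.41 to -0.14 (cKO by medium) and -0.68 to -0.29 (interaction), of Tgfa from -0.39 to -0.18 and Epgn from 0.22 to 0.43 (FBS by genotype), and of Ereg from 0.22 to 0.31 (atRA+PKCi by genotype) and -0.43 to -0.28 (interaction). In cultures, BMP against B-27 gave 16 to 32 genes higher, 144 to 372 lower and 1 to 2 members lower, with Egfr from -2.68 to -1.41 and Erbb3 from -3.18 to -1.97. Rspo+BMP gave 0 to 1 higher and 0 to 3 lower, and RARi 0 to 211 higher, 0 to 518 lower and 0 to 1 members lower, with Hbegf from -2.37 to -0.38. A group left with 1 library is assumed to vary like the others. Depth limits Btc in RNA-seq and Ereg, Btc, Epgn and Erbb2 in the cultured cells.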
